A study of Mus musculus with 6 samples.

Results

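The red cell regulators Gata1, Klf1, Tal1 and Nfe2, the erythropoietin receptor gene Epor, and the membrane protein genes Slc4a1 and Ank1 were followed in cultured cortical progenitors of the mouse embryo. The 7 genes were chosen by name from the table of normalised reads, out of 32285 genes, with earlier results of these data known. Each had a single gene identifier. All 7 were more abundant in cells treated with the lactate dehydrogenase inhibitor than in cells given solvent, by between 4.89 times for Ank1 and 10.9 times for Slc4a1 on group means, and in each of them every GSK library lay above every DMSO library, as was seen for 22.8% of all genes tested.

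Red cells arise from haematopoietic progenitors through a small set of transcription factors. GATA1 binds DNA together with the basic helix-loop-helix factor TAL1, KLF1 binds CACCC elements and is required for adult beta-globin expression, and NF-E2, whose large subunit is encoded by Nfe2, acts at globin enhancers in red cells and is needed for platelet formation. Erythropoietin keeps red cell precursors alive through its receptor, and the anion exchanger band 3, the product of Slc4a1, is tied to the spectrin skeleton by ankyrin 1. In the mouse embryo at this stage the blood holds nucleated primitive red cells from the yolk sac, and the cortex itself makes no red cells. Some of the 7 genes also act elsewhere: Gata1, Tal1 and Nfe2 in megakaryocytes, Tal1 in blood vessel precursors, and Ank1 in muscle and neurons.

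Neocortex of wild-type embryos at stage E10.5 was the source of the cells. Dissociated tissue was plated at 100000 cells per well, and about 2 h later cells received either GSK2837808A, an inhibitor of lactate dehydrogenase, or its solvent DMSO. The labels give the inhibitor concentration as 100 mM, which is implausibly high and was not verified. After about 24 h, around 1000 living cells per sample were sorted for the surface protein CD133 to obtain radial glial progenitors, the stem cells of the developing cortex, and Smart-seq2 libraries were made. The groups are named GSK and DMSO, with 3 libraries each. No label gives the number of embryos or says that replicates were separate cultures. The p-values therefore set group differences against the spread between these libraries only, and that spread may be technical.

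Reads recovered from the normalised values summed to between 7187089 and 10224348 in GSK libraries and between 7837721 and 10051625 in DMSO libraries. All 12 radial glial markers listed had reads in every library, and their summed level was 1512 to 1664 RPM (reads scaled to 1000000 per library) in GSK libraries and 2582 to 2701 in DMSO libraries. Of these 12 genes, 9 fell and none rose (limma adjusted p below 0.05). Prom1, the gene of the CD133 protein used for the sort, was among the 9, at 591 ± 96.3 normalised reads in GSK and 1183 ± 72.2 in DMSO (SD, n = 3 each; log2 fold change -1.01). Fabp7, a lipid carrier gene of radial glia, had a log2 fold change of -3.78, and the intermediate filament gene Vim did not pass (-0.10). DMSO replicate 3 stood apart for red cell genes, with 268 RPM of globin reads, against 1726 and 2343 in the other DMSO libraries. Values that moved by over 1.5 times without it are also given without it.

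The promoters are shown because the 7 genes moved together and because GATA1 and KLF1 have well known binding motifs. RefSeq starts on GRCm38.p6 were found for 4 of the 7 genes, with a pair of starts for Tal1. The 250 bases before the start are printed below, 5′ to 3′ on the strand of the gene, with capitals for the GATA motif (GATAA or GATAG preceded by A or T) and for the KLF motif CCNCNCCC, each on either strand; touching or overlapping matches run together.
Gata1, chrX:7967911-7968160, minus strand: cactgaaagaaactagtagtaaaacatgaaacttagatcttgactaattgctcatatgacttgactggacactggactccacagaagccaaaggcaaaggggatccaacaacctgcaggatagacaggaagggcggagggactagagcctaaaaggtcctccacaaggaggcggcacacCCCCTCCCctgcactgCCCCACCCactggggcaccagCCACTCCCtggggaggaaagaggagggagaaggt
Klf1, chr8:84901732-84901981, plus strand: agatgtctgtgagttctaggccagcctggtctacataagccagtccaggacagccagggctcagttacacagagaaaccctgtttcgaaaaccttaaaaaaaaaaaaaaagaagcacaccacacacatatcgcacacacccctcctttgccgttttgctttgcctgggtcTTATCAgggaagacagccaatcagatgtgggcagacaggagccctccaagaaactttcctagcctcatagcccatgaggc
Tal1, chr4:115056176-115056425, plus strand: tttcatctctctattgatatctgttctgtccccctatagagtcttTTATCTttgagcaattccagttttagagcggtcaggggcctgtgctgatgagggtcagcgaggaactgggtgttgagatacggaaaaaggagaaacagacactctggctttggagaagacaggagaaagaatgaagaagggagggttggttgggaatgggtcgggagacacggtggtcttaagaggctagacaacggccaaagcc
Epor, chr9:21963577-21963826, minus strand: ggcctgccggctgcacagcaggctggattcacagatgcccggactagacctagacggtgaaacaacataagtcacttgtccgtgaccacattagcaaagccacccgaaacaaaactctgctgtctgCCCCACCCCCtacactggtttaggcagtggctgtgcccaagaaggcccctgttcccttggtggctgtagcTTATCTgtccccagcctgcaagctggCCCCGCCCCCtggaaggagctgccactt

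The Klf1 promoter held a GATA motif that began 80 bases before the start, and an E-box of the form CAGNTG, the kind of site that TAL1 and its partners bind, that began 59 bases before it. In the Epor promoter, whose start lies upstream of the GENCODE gene, a GATA motif began 54 bases before the start, and the KLF motif matched at 4 positions, in overlapping pairs, between 124 and 26 bases before it, with an E-box at 219. The printed Tal1 promoter held a GATA motif 205 bases before the start and no KLF match, whereas the window of its second start, chr4:115057561-115057810, held 4 KLF matches and no GATA match. Gata1 had 3 KLF matches and no GATA match in a window whose start lies 10161 bases inside the GENCODE gene. Such motifs are common: among 32851 promoters of the same length, 26.5% held the GATA motif, 45.9% the KLF motif, 8.2% both and 44.8% the E-box. The GATA motif stood in 6 of 9 globin promoters, 12 of 25 promoters of red cell membrane genes and 3 of 11 promoters of heme synthesis genes. The KLF motif stood in 3 of 9, 16 of 25 and 6 of 11 promoters of the same lists. A match is a run of letters and not a measured binding site, and a window without one says nothing about the factor.

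Gata1 (ENSMUSG00000031162, chromosome X, 7959260 to 7978071, GRCm38), the master regulator of the red cell lineage, had 99.0, 146 and 188 normalised reads in the GSK libraries, against 11.7, 18.9 and 11.2 in the DMSO libraries. The lowest GSK library stood at 5.24 times the highest DMSO library. The group means were 144 ± 44.4 in GSK and 13.9 ± 4.33 in DMSO (SD, n = 3 each), a log2 fold change of 3.27 ± 0.28 (SE is the standard error, limma adjusted p = 2.15e-08). Behind these values were 87 to 177 reads per GSK library and 11 to 22 per DMSO library. Log2 fold changes of single genes were taken on log2(value + 1), and the added 1 shrinks those of scarce genes. A library with few reads can still enlarge them, as DMSO replicate 3 did for Tal1 below. In these bulk samples more cells of a type and more RNA per cell cannot be told apart.

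Klf1 (ENSMUSG00000054191, chromosome 8, 84901928 to 84905291), which drives globin and membrane genes late in red cell maturation, had 142, 190 and 238 normalised reads in GSK libraries, against 23.4, 38.7 and 5.58 in DMSO libraries. The groups did not overlap, but the DMSO values spread 6.93 times between lowest and highest, compared with 1.67 times in GSK. The means were 190.0 ± 47.7 in GSK and 22.5 ± 16.6 in DMSO, a log2 fold change of 3.34 ± 0.73 (SE, limma adjusted p = 0.0211). Without DMSO replicate 3 the log2 fold change was 2.59 (adjusted p = 5e-07). The call was lost without GSK replicate 1 (adjusted p = 0.0626), GSK replicate 2 (0.0775), GSK replicate 3 (0.0891) or DMSO replicate 1 (0.0643), although the log2 fold change was still 3.16 to 3.53. On whole reads, edgeR gave an adjusted p of 0.00127 and DESeq2 of 8.5e-05.

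Tal1 (ENSMUSG00000028717, chromosome 4, 115056426 to 115071755), which nucleates the GATA1 complex on DNA, had 66.0, 45.9 and 56.2 normalised reads in GSK libraries, against 10.6, 10.3 and 0.929 in DMSO libraries. It was the scarcest of the 7, and DMSO replicate 3 held 1 read of it, with an exact Poisson interval of 0.0253 to 5.57 reads that covers counting error only. The means were 56.1 ± 10.0 in GSK and 7.29 ± 5.51 in DMSO, and the groups did not overlap. The log2 fold change was 3.16 ± 0.59 (SE, limma adjusted p = 0.00116), and 2.30 without DMSO replicate 3 (adjusted p = 2.64e-05). All 7 genes passed the filter of a mean of 10 normalised reads over the 6 libraries, but the DMSO mean of Tal1 alone was below it, so that Tal1 was tested through its GSK values.

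Nfe2 (ENSMUSG00000058794, chromosome 15, 103248212 to 103258403), the large NF-E2 subunit gene, had 125, 176 and 180 normalised reads in GSK libraries, against 17.0, 28.4 and 7.43 in DMSO libraries. The lowest GSK library was 4.41 times the highest DMSO library. The means were 161 ± 30.8 in GSK and 17.6 ± 10.47 in DMSO, a log2 fold change of 3.28 ± 0.37 (SE, limma adjusted p = 1.71e-05). Without DMSO replicate 3 the log2 fold change was 2.80.

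Epor (ENSMUSG00000006235, chromosome 9, 21958897 to 21963506) encodes the receptor through which erythropoietin signals. It had 174, 232 and 212 normalised reads in GSK libraries, against 23.4, 27.5 and 12.1 in DMSO libraries, so that the lowest GSK library was 6.33 times the highest DMSO library. The means were 206 ± 29.6 in GSK and 21.0 ± 7.98 in DMSO, a log2 fold change of 3.30 ± 0.26 (SE, limma adjusted p = 7.77e-09).

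**Figure D1:**
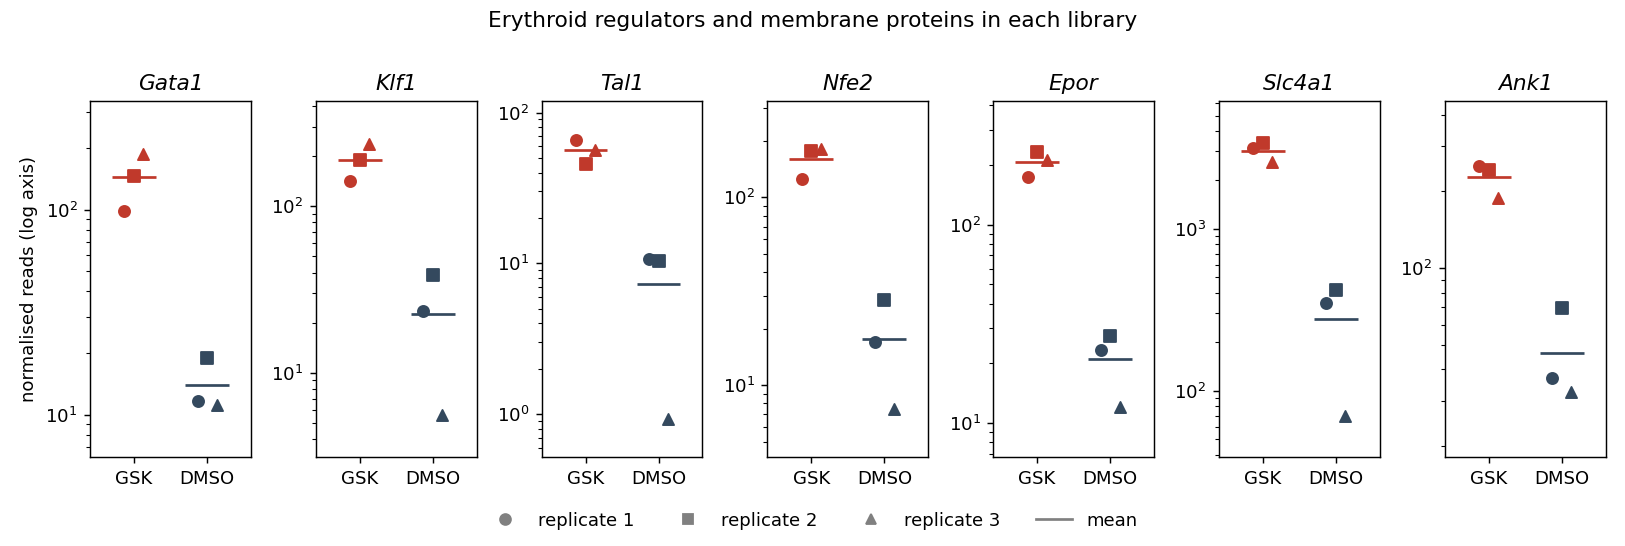
Normalised reads (log axes, a separate range per gene) of the 7 genes in each library, GSK on the left and DMSO on the right of each panel; symbols mark replicates and lines the group means. In every panel the 3 GSK libraries lie above the 3 DMSO libraries, and DMSO replicate 3 is the lowest library in all 7.

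Slc4a1 (ENSMUSG00000006574, chromosome 11, 102348824 to 102366203) was the most abundant and had the largest fold change over all libraries, though not without DMSO replicate 3, where Gata1 had the largest. It had 3142, 3400 and 2569 normalised reads in GSK libraries, against 346, 418 and 69.7 in DMSO libraries. The groups did not overlap, and the DMSO values spread 6.004 times. The means were 3037 ± 425 in GSK and 278 ± 184 in DMSO, a log2 fold change of 3.79 ± 0.80 (SE, limma adjusted p = 0.0254). Without DMSO replicate 3 the log2 fold change was 2.98 (adjusted p = 5.62e-10). As for Klf1, the call was lost without GSK replicate 1 (adjusted p = 0.0692), GSK replicate 2 (0.0916), GSK replicate 3 (0.0751) or DMSO replicate 1 (0.0562), with log2 fold changes of 3.71 to 4.13, and with no filter on low values (0.0552).

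Ank1 (ENSMUSG00000031543, chromosome 8, 22974844 to 23150497) changed least. It had 250.3, 242 and 189 normalised reads in GSK libraries, against 37.2, 69.6 and 32.5 in DMSO libraries. The groups did not overlap, with means of 227 ± 33.3 in GSK and 46.4 ± 20.2 in DMSO and a log2 fold change of 2.33 ± 0.24 (SE, limma adjusted p = 3.93e-07). Ank1 made up 5.64% ± 0.554 of the reads of the 7 genes in GSK libraries and 14.2% ± 8.09 in DMSO libraries, and the ranges of 5.20 to 6.26% and 7.92 to 23.3% did not overlap (exact permutation over libraries, two-sided, p = 0.1; 3 against 3 allows no smaller p). The shares of Gata1, Klf1, Tal1, Nfe2, Epor and Slc4a1 did not separate the groups, with exact permutation p of 0.2 to 0.8. The antisense gene Gm15816 shares 6.37% of the exon bases of Ank1, and reads of the pair cannot be told apart without strand; it was listed at 7.97 to 12.9 normalised reads in GSK libraries and 1.06 to 2.79 in DMSO libraries.

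All 7 genes thus passed the test and were higher in GSK. Of the 15073 genes tested, 36.1% passed in either direction and 17.0% were higher. Their median log2 fold change was 3.28, against 0.01 over all genes tested. A log2 fold change of at least 3 was reached by 6 of the 7, and by 0.504% of all genes tested among those called higher. Without DMSO replicate 3 all 7 were still called, with a median of 2.80, but only Gata1 reached 3. Without DMSO replicate 1 or any of the GSK libraries 5 of 7 were called. The 7 genes were chosen with earlier results of these data known, and Tal1 was tested through its GSK values. The shares of all genes are therefore a scale beside these counts and give no test of them.

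Levels between genes were compared per length, as RPM per kilobase of exon. In GSK libraries Slc4a1 stood highest at 69.9 ± 11.3, followed by Klf1 at 13.8 ± 2.81, Epor at 11.6 ± 0.869, Gata1 at 6.57 ± 1.71, Nfe2 at 5.99 ± 0.763, Ank1 at 1.89 ± 0.373 and Tal1 at 1.45 ± 0.366. In DMSO libraries the levels were 6.70 ± 4.40 for Slc4a1, 1.73 ± 1.25 for Klf1, 1.24 ± 0.467 for Epor, 0.691 ± 0.403 for Nfe2, 0.670 ± 0.198 for Gata1, 0.403 ± 0.169 for Ank1 and 0.196 ± 0.149 for Tal1. Klf1 and Epor, Gata1 and Nfe2, and Ank1 and Tal1 had overlapping ranges within each group. Within each library, however, Slc4a1 stood above Klf1 and Ank1 above Tal1.

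The close relatives of these genes mostly did not move with them. Of 12 other KLF genes tested 2 rose, Klf7 with a log2 fold change of 0.87 and Klf10 with 0.48, and none fell. Klf10 lost its call when any library but DMSO replicate 3 was left out (highest adjusted p = 0.151). The abundant Klf6 and Klf13 did not pass, both with a log2 fold change of 0.29. The other 5 GATA genes were below the filter, and together reached 0.978 to 4.17 RPM in GSK libraries and 1.79 to 2.62 in DMSO libraries. Among relatives of Nfe2, which share its leucine zipper, Nfe2l1 and Bach1 did not pass (log2 fold changes 0.05 and 0.16) and Bach2 fell by 0.42. Bach2 was no longer called without GSK replicate 2, DMSO replicate 1 or DMSO replicate 2 (highest adjusted p = 0.166).

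The relatives of Tal1 were the exception. All 3 that were tested rose: Lyl1, a blood cell factor, with a log2 fold change of 2.73, and the neuronal factors Nhlh1 and Nhlh2 with 1.98 and 1.27. Lyl1 had a DMSO mean of 8.07, below the filter, and was tested through its GSK values. Tal2 was below the filter and not tested, with mean normalised reads of 2.48 in GSK and 4.07 in DMSO. Nhlh2 was no longer called when any single GSK library was left out (highest adjusted p = 0.0861). Of 7 other SLC4 bicarbonate transporter genes none rose and 3 fell. Slc4a4, a sodium bicarbonate cotransporter gene, had a log2 fold change of -1.29, Slc4a8 of -0.58 and Slc4a11 of -0.80, while Slc4a2 and Slc4a7 did not pass (-0.19 and -0.16). Only Slc4a4 of these kept its call without DMSO replicate 2, the adjusted p then being 0.0601 for Slc4a8, and Slc4a11 lost its call without any library but GSK replicate 1 (highest 0.149). Ank2, the ankyrin gene of heart and brain, fell by 0.54 and Ank3, which organises the axon initial segment, did not pass (log2 fold change 0.30). Among 8 other class I cytokine receptor genes tested, the myeloid receptor subunit genes Csf2ra and Csf2rb rose (log2 fold changes 1.22 and 2.20), whereas Il6st and Lifr did not pass (-0.22 and -0.05). The count was 4 of 10 without DMSO replicate 3.

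The difference between each gene and its family was described as a ratio within libraries. Reads of Slc4a1 were 2.06 to 2.41 times those of its 9 relatives in GSK libraries and 0.0417 to 0.240 times in DMSO libraries, a log2 difference of 4.10. The log2 difference was 3.72 for Gata1, 3.15 for Klf1, 1.81 for Tal1, 3.31 for Nfe2, 3.52 for Epor and 2.52 for Ank1. The Gata1 ratio is imprecise, as its relatives together reached only 0.978 to 4.17 RPM in GSK libraries and 1.79 to 2.62 in DMSO libraries. In all 7 families the GSK ratios lay above the DMSO ratios (exact permutation p = 0.1 in each family, the smallest possible). The 7 genes had already separated the groups upward on their own, so these ratios largely restate that and are no independent test. When DMSO replicate 3 was left out, the difference was 3.29 for Slc4a1, 2.36 for Klf1 and 0.99 for Tal1, and 2.42 to 3.44 for the other 4 genes (exact permutation p = 0.2 for Gata1 and 0.1 for the rest).

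**Figure D2:**
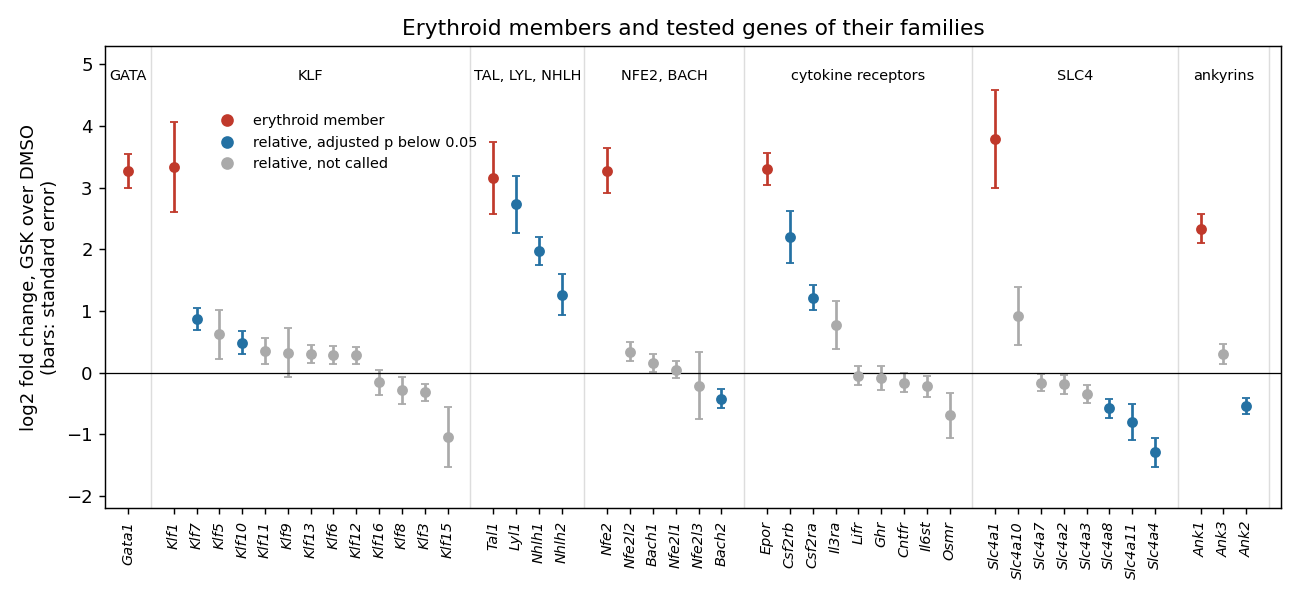
Log2 fold change of GSK over DMSO with its standard error for the 7 genes (red) and the tested genes of their families (blue where the adjusted p was below 0.05, grey where not). The 7 genes lie between 2.33 and 3.79, and the KLF, NFE2, SLC4 and ankyrin relatives all lie below 1.

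The wider red cell programme moved with the 7 genes. Of 24 tested genes of the red cell membrane and skeleton 18 rose and 2 fell, with a median log2 fold change of 2.03. Epb42, which encodes the band 3 partner protein 4.2, had 279, 248 and 264 normalised reads in GSK libraries, against 22.3, 36.9 and 11.2 in DMSO libraries, and rose with a log2 fold change of 3.58. Stom, the stomatin gene, and Xk, a blood group antigen gene, rose with 1.75 and 1.87. Aqp1, the water channel gene of red cells that other cells use as well, went the other way, with 26.2, 13.8 and 15.9 normalised reads in GSK libraries, against 227, 269 and 324 in DMSO libraries, a log2 fold change of -3.84 (limma adjusted p = 2.64e-10). Epb41 and Tpm3, which are broadly expressed, did not pass (0.16 and -0.19). Add3 fell by 0.48, but not without DMSO replicate 2 (adjusted p = 0.0669). The heme synthesis list had 11 of 12 higher and 1 lower, with a median of 1.22, among them Cpox (log2 fold change 2.24), Uros (1.49), Fech (2.46) and Tmem14c (1.21).

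Genes of late red cell maturation rose in 17 of 20 cases tested and fell in 1, with a median log2 fold change of 1.21. Hemgn, a nuclear factor gene of red cells that GATA1 regulates, had 589, 608 and 612 normalised reads in GSK libraries, against 41.4, 47.3 and 30.7 in DMSO libraries. Its log2 fold change of 3.91 had the smallest adjusted p of the list (limma adjusted p = 3.75e-12). Ube2l6 and Blvrb rose with 2.13 and 2.98. Xpo7, a nuclear export gene, was the 1 that fell (-0.50), and Fbxo7 and Ube2o did not pass (0.18 and -0.02).

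Partners and upstream signals moved less uniformly. Of 24 tested transcription partners 12 rose and 6 fell, with a median of 0.38. Hes6 rose with a log2 fold change of 0.84, Foxo3 with 1.19 and Lyl1 as above, whereas Sox6, which silences embryonic globin in red cells and is also a gene of cortical progenitors, had -1.48. Gfi1b and Zfpm1, partner genes of GATA1 that were picked out after their values were seen, rose with 4.24 (3.59 without DMSO replicate 3) and 1.45, and Ldb1 and Tcf12 did not pass (-0.12 and -0.22). Gata2, which precedes Gata1 in blood progenitors, had 22, 1 and 3 reads in GSK libraries and 2, 6 and 9 in DMSO libraries. The ratio of Gata1 to Gata2 reads was 3.95, 159 and 59.0 in GSK libraries, against 5.50, 3.67 and 1.33 in DMSO libraries, and the groups overlapped (exact permutation p = 0.2, two-sided). Denominators of 1 to 3 Gata2 reads in 3 of the 6 libraries make these ratios imprecise.

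In erythropoietin signalling 5 of 19 tested genes rose and 5 fell, with a median of -0.06, close to that of all genes tested. The count of rises was 3 without GSK replicate 1 or GSK replicate 3, 2 without DMSO replicate 1 or DMSO replicate 2, and 1 without GSK replicate 2, and that of falls was 3 without GSK replicate 2 or GSK replicate 3. Bcl2l1, the survival gene downstream of the receptor, rose with a log2 fold change of 0.71. Socs3, Spry1 and Kit had log2 fold changes of -0.66, -1.22 and -0.63. Jak2, the kinase bound to the receptor, Stat5a and Stat5b, named after their values were seen, did not pass (0.13, 0.63 and -0.06), nor did Tfrc and Socs2 (0.37 and 0.04). Epo itself was listed at 0 to 1.06 normalised reads in GSK libraries and 0.859 to 2.79 in DMSO libraries.

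**Figure D3:**
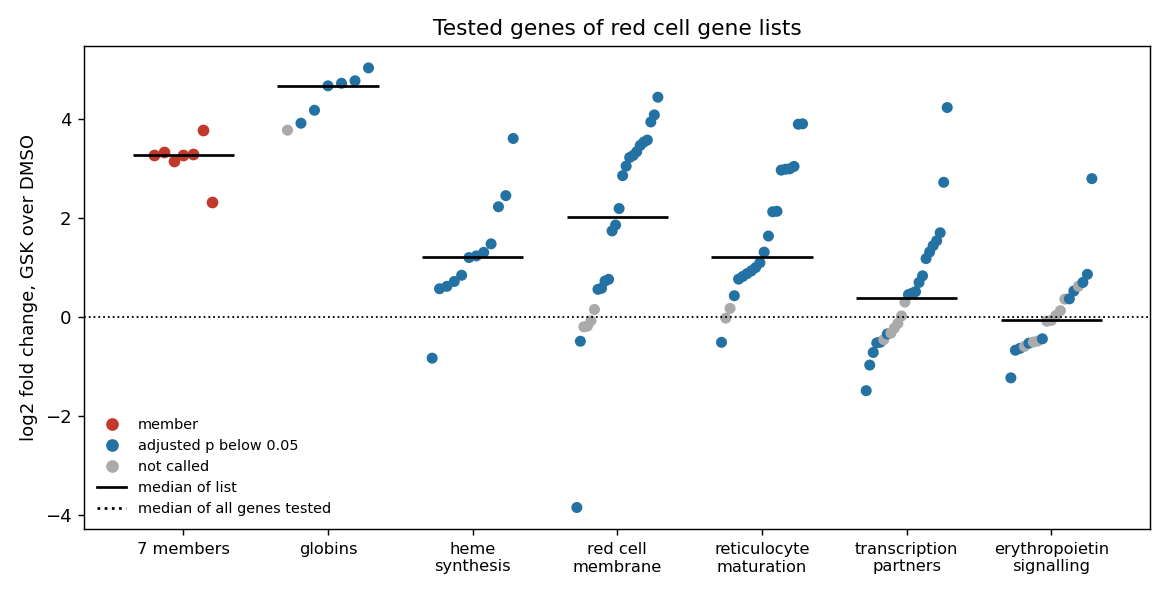
Log2 fold change of GSK over DMSO for the 7 genes and for the tested genes of the red cell lists without them; each point is a gene, solid lines are list medians and the dotted line is the median of all genes tested. The medians run from 4.68 for globins to -0.06 for erythropoietin signalling.

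Most globins had larger fold changes than the 7 genes. Of 7 globin genes tested 6 rose and none fell, with a median of 4.68, among them the embryonic genes Hbb-y and Hbb-bh1 (log2 fold changes 4.78 and 5.04), Hba-a1 (4.68) and Hbq1b (3.92). Hbb-bt did not pass (3.78, limma adjusted p = 0.0588). The count was 1 or 2 without DMSO replicate 1 or any single GSK library, 5 without DMSO replicate 2 and 7 without DMSO replicate 3. In that last case the median was 3.68 and the log2 fold changes ran from 2.69 for Hbb-bt to 3.95 for Hbb-bh1, with 3.86 for Hbb-y and 3.71 for Hba-a1, and overlapped those of the 7 genes. Summed globins reached 22152, 28774 and 29144 RPM in GSK libraries, against 1726, 2343 and 268 in DMSO libraries. The summed 7 genes reached 489, 472 and 395 in GSK libraries, against 56.4, 70.8 and 16.4 in DMSO libraries. The log2 difference of the sums was 4.69 for globins and 3.48 for the 7 genes (two-sided exact permutation p = 0.1 each). Per globin read, every one of the 7 genes was lower in each GSK library than in any DMSO library, with a log2 difference of -0.96 for Slc4a1 to -2.40 for Ank1. These differences, when DMSO replicate 3 was left out, ran from -0.56 for Gata1 to -1.64 for Ank1, with -0.80 for Slc4a1, and the groups still did not overlap for any of the 7. Summed globins, the denominator, were higher by a log2 difference of 4.69 over all libraries, so an unchanged gene would also fall per globin read. How many of all genes tested separate this way was not counted.

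The log2 ratio of the summed 7 genes to summed globins was -5.88 ± 0.36 in GSK libraries and -4.67 ± 0.56 in DMSO libraries, a difference of -1.21 (two-sided exact permutation p = 0.1). Without DMSO replicate 3 the difference was -0.89 (exact permutation p = 0.2). For the 4 transcription factor genes alone it was -1.41, and -0.99 without DMSO replicate 3. The ratio of Slc4a1 to the 4 transcription factor genes did not separate the groups, at 7.27, 6.09 and 3.88 in GSK libraries and 5.53, 4.35 and 2.78 in DMSO libraries (exact permutation p = 0.4).

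**Figure D4:**
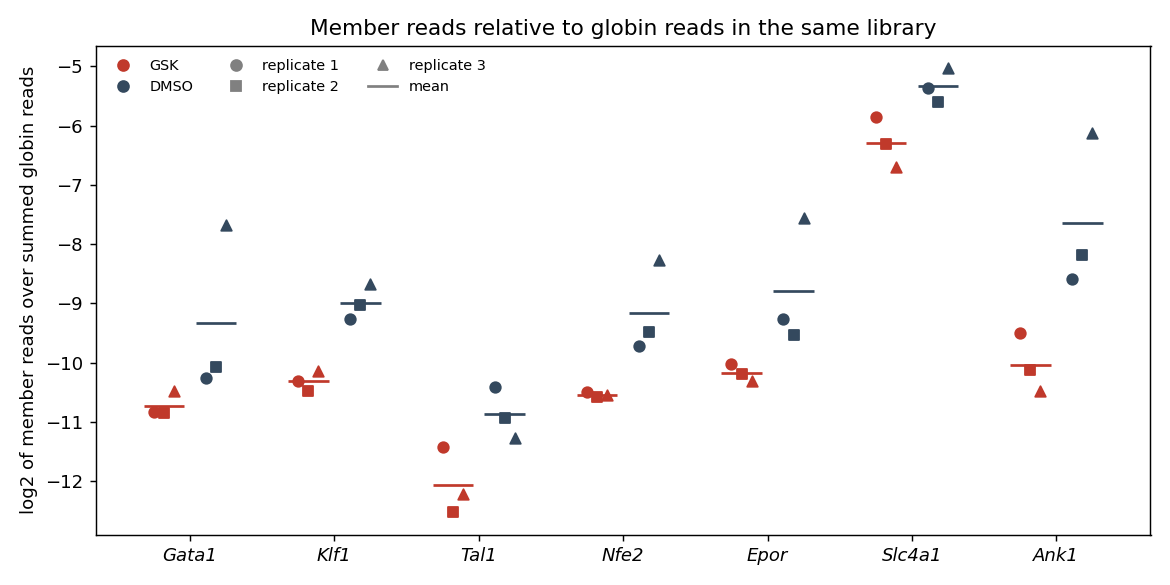
Log2 ratio of each gene's reads to the summed globin reads of the same library, GSK left of DMSO for each gene; symbols mark replicates and lines the means. Each GSK library lies below each DMSO library for all 7 genes, with mean differences of -0.96 to -2.40. Summed globins rose by more than the 7 genes, so a gene that did not change would also lie lower in GSK.

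Among all genes tested, those nearest to the mean profile of the 7 genes were Sptb, Slc25a37, Adra2b, Slc22a4 and Dmtn, by the root mean square distance between centred log2 profiles over 6 libraries. Sptb, the erythroid spectrin beta chain gene, lay nearest, at a distance of 0.0637 on the log2 scale, with 356, 404 and 434 normalised reads in GSK libraries, against 52.1, 66.2 and 18.6 in DMSO libraries. Slc25a37 encodes the mitochondrial iron importer mitoferrin of red cells and lay at 0.183. Dmtn, the dematin gene of the red cell skeleton, lay at 0.206. Adra2b, an adrenergic receptor gene, and Slc22a4, an organic cation transporter gene, are on none of the lists used. Slc22a4 had a DMSO mean of 7.73, below the filter, and was tested through its GSK values. Among the 7, Nfe2 and Epor were nearest to each other (0.213) and Slc4a1 and Ank1 farthest apart (0.963). Chac1, also on none of the lists, which encodes a glutathione degrading enzyme, was the third nearest to Gata1 (0.259) and the second nearest to Epor (0.139).

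Markers of other blood and vessel cells that use some of these genes were summed per library, with Pf4, Kit and a few others on more than 1 list. The 14 megakaryocyte and platelet markers summed to 99.8, 20.1 and 24.1 RPM in GSK libraries, against 16.6, 47.8 and 13.3 in DMSO libraries, so that GSK replicate 1 and DMSO replicate 2 stood highest (exact permutation p = 0.5). Their most abundant genes, the platelet factor gene Pf4 and Plek, had 313 and 147 normalised reads in GSK replicate 1. Plek was the 1 gene called of 5 tested (log2 fold change 0.85, limma adjusted p = 0.0093), and was not called without GSK replicate 1 or DMSO replicate 3 (highest adjusted p = 0.0561). Among GSK libraries, replicate 1 was the highest for Tal1 and Ank1 and the lowest for Gata1, Klf1, Nfe2 and Epor. For Tal1 this order rested on 58, 50 and 53 reads, whose exact Poisson intervals overlapped. Ank1 was nearly as high in GSK replicate 2, at 242 against 250.3 normalised reads. The 12 endothelial markers summed to 14.8 to 22.0 RPM in GSK libraries and 18.8 to 23.5 in DMSO libraries. Egfl7 and Kdr, the most abundant of them, had reads in every library and did not pass (log2 fold changes -0.49 and -0.84). Cldn5, the scarcest of the 12 by mean and named outside the naming rule, had between 0 and 2.28 normalised reads in every library. The 10 mast cell markers summed to 14.4 to 24.2 in GSK libraries and 24.2 to 26.2 in DMSO libraries, with Mcpt8 at 0 in all. The 2 most abundant went opposite ways. Kit, which other cells use as well and which made up most of the sum, fell (log2 fold change -0.63). Hdc, below the filter and not tested, had 14.8, 13.8 and 12.7 normalised reads in GSK libraries, against 6.37, 0 and 2.79 in DMSO libraries. The 10 markers of haematopoietic progenitors summed to 36.3 to 54.1 in GSK libraries and 47.2 to 48.8 in DMSO libraries. Kit and Meis1 were by far the most abundant of these, so the sum mostly follows them and hides scarcer genes. Of 6 tested, Ptprc and Runx1 rose (log2 fold changes 2.24 and 1.32) and Kit fell. Runx1 was not called without GSK replicate 3 or DMSO replicate 2 (highest adjusted p = 0.0646). Every GSK library lay above every DMSO library for Ptprc, Runx1, Cd34 and Flt3, and below for Kit and Spink2. Groups did not overlap in either direction for 47.2% of all genes tested.

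Myeloid markers, in contrast, moved with the 7 genes. The 14 markers summed to 126 to 180 RPM in GSK libraries and 21.0 to 48.5 in DMSO libraries. Of 13 tested 7 rose, against 17.0% of all genes tested, with Csf1r at a log2 fold change of 1.34. Aif1, Itgam and Lyz2, among those that rose, had DMSO means below the filter and were tested through their GSK values. DMSO replicate 3, lowest for all 7 red cell genes, was the highest DMSO library for myeloid markers. Of 10 neuron markers 5 rose and 1 fell, the list summing to 2595 to 2868 in GSK libraries and 854 to 1685 in DMSO libraries, where DMSO replicate 3 was lowest. The 15 red cell markers in the table summed to 22681 to 29726 in GSK libraries and 290 to 2411 in DMSO libraries. The part of any of these cell types in the values of the 7 genes was not tested.

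**Figure D5:**
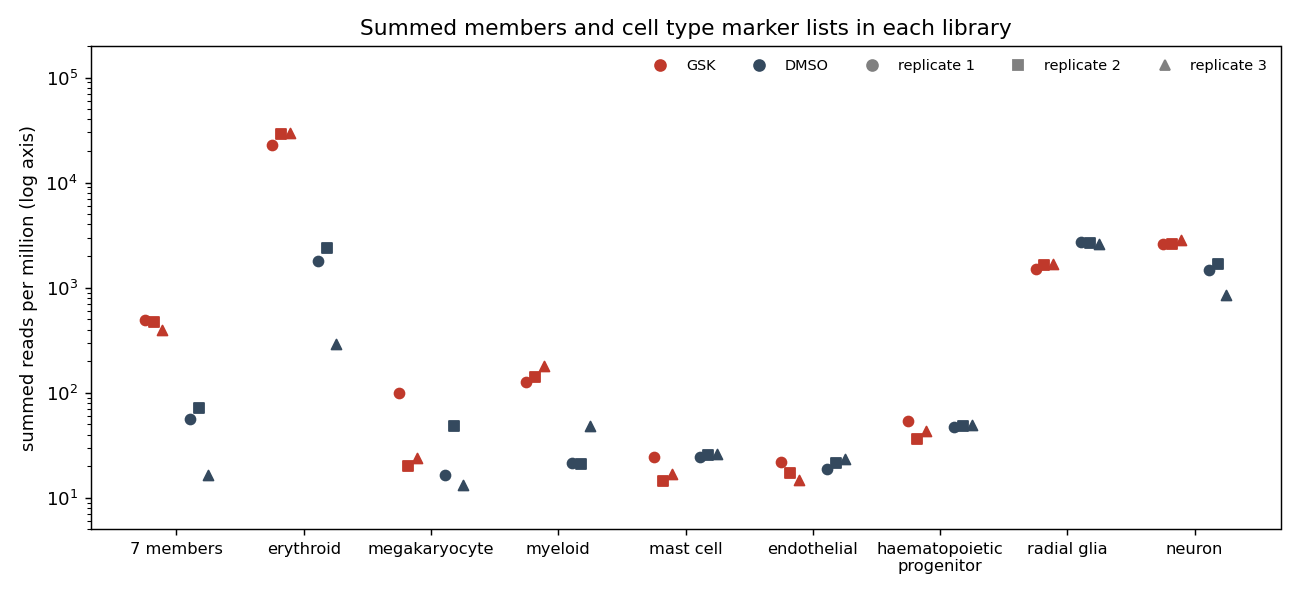
Summed reads in RPM (log axis) of the 7 genes and of marker lists in each library, GSK left of DMSO; symbols mark replicates. The 7 genes and the erythroid and myeloid markers are higher in all GSK libraries, whereas megakaryocyte, endothelial and haematopoietic progenitor sums overlap between the groups. The haematopoietic progenitor sum mostly follows Kit and Meis1, and within that list Ptprc and Runx1 rose and Kit fell.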

How the data were processed

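The authors deposited a signal table, the normalised counts of 3 GSK and 3 DMSO bulk Smart-seq2 libraries. Each gene's value recurs on its transcript rows, and 1 row per gene was kept. The submitters' processing notes name STAR, DESeq, GRCm38 and mm10, without role or version; for the read counter and strand setting the sources used here give nothing. In each library 100% of the values above 0 were whole multiples of what 1 read was worth (within 0.01), so whole reads were recovered. Coordinates and exon lengths came from GENCODE vM21 on GRCm38, promoters from RefSeq on GRCm38.p6.

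The main test was limma 3.58.1 (R 4.3.3; trended, robust) on log2(value + 1) for 15073 genes with a mean of at least 10, with Benjamini-Hochberg adjustment over all of them at 0.05. Some called genes had a DMSO mean below 10, among them Lyl1, Runx1, Hbq1b, Rhag, Icam4 and Trim58. Counts of rises in lists therefore include genes that were tested only through their GSK values. The script was tested on simulated data. For sums and ratios, exact two-sided permutation over the 6 libraries was used. Alternatives were other pseudocounts, filters, scalings, weights and thresholds, a replicate block, each library left out, and edgeR 4.0.16 and DESeq2 1.42.0 on recovered reads. From each list, up to 4 called genes by smallest p and up to 2 uncalled genes by highest mean were named, with exceptions stated; some genes that the rule names are not reported here. The members and lists were chosen with earlier results of these data known.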

Additional observations from a re-analysis of the deposited data

How the results depend on the processing

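The 7 red cell genes kept a positive log2 fold change under every alternative run. All 7 were called with pseudocounts of 0.5 and 10, the 3 other scalings, array weights, edgeR and DESeq2. With no filter 6 were called, with a mean of at least 100 there were 4 tested and 4 called, and at adjusted p below 0.01 there were 5. Leaving out single libraries gave 5 to 7. Same-numbered GSK and DMSO libraries did not deviate together (correlations across genes of 0.0131, -0.0236 and 0.0529), so the values gave no sign of pairing. Such correlations cannot exclude that they shared a culture or preparation, and no label says whether they did. With the replicate block 5 were called, as Klf1 (adjusted p = 0.0787) and Slc4a1 (0.0547) were not, and 1 of 7 globin genes was called. The cause of these losses was not tested.

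Of all genes tested, 2563 rose and 2883 fell. Array weights gave 3864 rises and a threshold of 0.01 gave 1562. Equal library totals gave 2050 rises and 3269 falls, and equal totals without globin and ribosomal RNA genes 2879 and 2603, so which direction held more genes depended on the scaling. Leaving out single libraries gave 1734 to 3062 rises and 2238 to 3236 falls, and the replicate block 2662 and 2980. On recovered reads edgeR called 2529 higher and 3006 lower. Over single libraries left out, the log2 difference ranged from 2.83 to 3.89 for the summed genes, from 3.72 to 5.28 for globins, from -1.40 to -0.89 for their ratio, from -1.65 to -0.99 for transcription factors to globins, and from 2.35 to 5.01 for Gata1 to Gata2. The 2.83 for the summed genes and the 3.72 for globins were the values without DMSO replicate 3. Of 468 list counts under alternatives, 416 were within 1.5 times the main count. Counts of 0 in both fits were scored as within, and the GATA list without Gata1 had 0 genes tested in the main fit. The 416 therefore include agreements fixed in advance and are no measure of stability. The family and globin ratios of single genes without DMSO replicate 3 were added after seeing the data. Depth limits Tal1 in DMSO replicate 3 and Gata2.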
